A study of Mus musculus with 15 samples.

Results

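The 10 genes described here form the core of macroautophagy, the process by which a cell encloses part of its cytoplasm in a double membrane and delivers it to the lysosome. The rule lists them by name and holds no threshold on a measured value, though earlier results of these data were known when they were chosen. They are Ulk1, Becn1, Atg5, Atg7, Map1lc3a, Map1lc3b, Gabarap, Gabarapl1, Gabarapl2 and Sqstm1, 10 of 46078 genes in the count table. A signal of starvation or stress activates the ULK1 kinase, which turns on a lipid kinase complex built around Beclin-1 (Becn1). The enzymes ATG7 and ATG5 then help to attach the small ATG8 proteins (the LC3 and GABARAP families) to the growing membrane, where receptors such as p62 (Sqstm1) bring in cargo. Podocytes, the postmitotic filter cells of the glomerulus, are known for a high basal level of autophagy, and its loss in podocytes harms the aging glomerulus.

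RNA was sequenced from the podocyte fraction of male C57BL/6J mice, which is the part of a kidney cortex digest held back by magnetic sorting with antibodies against nephrin. Young mice were 4 months old and received no injection. Aged mice were 21 months old and received weekly intraperitoneal injections at 12 mg/kg for 8 weeks, either of an isotype control antibody (clone 2A3, called IgG2a) or of an antibody that blocks PD-1 (clone RMP1-14, called aPD1ab). The titles of the aPD1ab samples give 47 days in place of 8 weeks. The labels list 5 samples in each group. The count table names its columns by numbers that no label repeats, and 13 of 15 columns could be tied to a group through the numbers beside the points of a plot in the paper, leaving 5 libraries from young mice and 4 from each aged group. The young mice had no injection, so age and the injection of an antibody cannot be told apart in any comparison with them.

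The 13 libraries held 19912969 to 32717100 counts each, and the 10 genes were measured with 273 to 33414 counts per library. All 10 podocyte markers examined, among them nephrin, had counts in every library, but the fraction was mixed. Values are CPM, counts relative to the library size, scaled by TMM, a method that sets library sizes so that most genes do not differ. The summed level of podocyte markers was 1030 to 1604 CPM in young, 587 to 768 in aged IgG2a and 340 to 949 CPM in aged aPD1ab libraries. Proximal tubule markers summed to 9571 to 14376 CPM in young and 7145 to 20281 CPM in aged aPD1ab libraries, and macrophage markers to 1993 to 3609 and 2408 to 5509 CPM. Aged IgG2a replicate 1 stood apart from its group. Its proximal tubule and macrophage sums were 6903 and 3203 CPM, against 1306 to 2101 and 7380 to 9481 CPM in the other 3 aged IgG2a libraries. On the first principal component, which held 40.7% of the variance of 16330 genes, it lay at -16.4 and the other 3 at 71.6 to 84.2. Aged aPD1ab replicate 2 also stood apart, at -64.9 against -13.9 to 10.9 in the rest of its group. Its proximal tubule sum was 20281 CPM, against 7145 to 8005 CPM. It was kept except where each library was left out in turn. Comparisons with aged IgG2a use all libraries. The fold change of each member and the counts of each autophagy list are also given without aged IgG2a replicate 1. That choice followed earlier results of these data, so p-values without that library are not independent of it. In such a bulk sample, fewer cells of a type and less RNA per cell cannot be told apart.

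Per kilobase of exon, Gabarapl1 was the most abundant of the 10 transcripts in each group, at 307 ± 45.0 CPM per kb in young (SD, n = 5), 260 ± 152 in aged IgG2a (SD, n = 4) and 368 ± 34.3 in aged aPD1ab libraries (SD, n = 4). In young libraries Sqstm1 (95.6 ± 9.39 CPM per kb) and Gabarap (91.8 ± 6.89) came next and did not differ beyond their spread. Map1lc3a followed at 23.5 ± 2.23, Gabarapl2 at 20.6 ± 1.84 and Map1lc3b at 16.3 ± 0.893 CPM per kb. The initiation and conjugation genes were the lowest, with Ulk1 at 10.2 ± 0.386, Atg5 at 9.76 ± 0.660, Becn1 at 8.09 ± 0.740 and Atg7 at 3.49 ± 0.292 CPM per kb. Among these, Ulk1 and Atg5 lay within their spread of each other. The lengths join all annotated exons of a gene, 7517 bases for Map1lc3b, 7065 for Becn1 and 1181 for Map1lc3a. Which transcript forms were present was not examined, so ranks between genes depend on these lengths. Before division by length, Map1lc3b stood at 123 ± 6.71 CPM and Map1lc3a at 27.8 ± 2.64 CPM in young libraries (SD, n = 5).

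**Figure D1:**
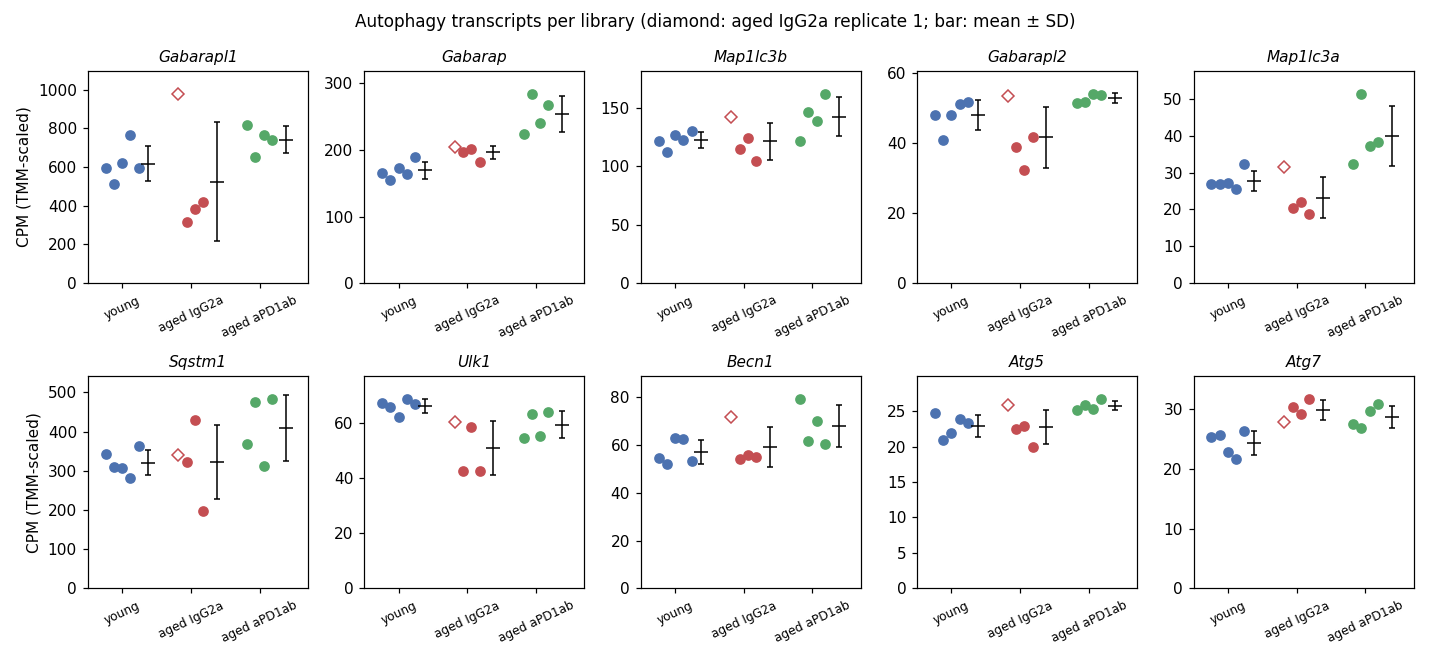
Level of each of the 10 autophagy transcripts in CPM (y axis, from 0) in the 5 young, 4 aged IgG2a and 4 aged aPD1ab libraries, with 1 point per library and the mean and SD beside each group. Aged IgG2a replicate 1, the open diamond, holds the highest Gabarapl1 level of all 13 libraries at 979 CPM, while the other 3 aged IgG2a libraries hold the 3 lowest.

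The first comparison, aged IgG2a against young, asked how the fraction of aged, injected mice differed from that of young, uninjected mice. With all libraries, Atg7 was the 1 member of 10 called at an edgeR adjusted p under 0.05, with a higher level in aged mice, beside 17.4% of all 15953 genes tested. Without replicate 1, 6 members were called, beside 45.6% of 16216 genes. Gabarap and Atg7 were higher in aged mice, and Gabarapl1, Gabarapl2, Map1lc3a and Ulk1 were lower. The called members higher in aged mice were 2 beside 22.1% of all genes, and those lower were 4 beside 23.5%. The median log2 fold change of the 10 members was 0.05 with all libraries and -0.03 without replicate 1, beside 0.04 and -0.01 for all genes. Cell markers moved with this comparison. With all libraries 10 of 10 proximal tubule markers were called lower in aged IgG2a mice. Of the podocyte markers 8 of 10 were called lower and 1 higher. Of the endothelial list 6 of 8 were called lower, and of the mesangial and smooth muscle list 3 of 8. Those called higher were 9 of 10 macrophage and 4 of 8 B and plasma cell markers. So were 2 of 8 T cell and 1 of 6 loop of Henle and distal nephron markers. Over all genes 8.38% were called lower and 9.05% higher. Nphs1 (nephrin), which defines podocytes, was at a log2 fold change of -2.80 with all libraries (edgeR adjusted p = 0.00833). The part of these cells in the values of the members was not tested.

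Ulk1 (ENSMUSG00000029512, GRCm38 chromosome 5, 110784488 to 110810097) encodes the kinase that starts the process. Its level was 67.6, 66.1, 62.3, 69.0 and 66.9 CPM in the young libraries, 60.4, 42.7, 58.8 and 42.6 CPM in aged IgG2a libraries 1 to 4, and 54.9, 63.6, 55.6 and 64.0 CPM in the aged aPD1ab libraries. All 4 aged IgG2a libraries lay below all 5 young ones, with replicates 2 and 4 well below the others. Ulk1 was 1 of 10 members, with 10.2% of all genes at a mean of at least 1 CPM, whose aged IgG2a libraries all lay below the young ones. Ulk1 differed between aged IgG2a and young by a log2 fold change of -0.31 (SE 0.12, edgeR adjusted p = 0.0926) and, without replicate 1, -0.41 (SE 0.11, adjusted p = 0.0121). Across the 13 libraries the Ulk1 level followed the proximal tubule markers (Pearson r = 0.83 on log2 values) and ran against the macrophage markers (r = -0.79). All correlations with marker sums given here pool the 3 groups, so they also hold the differences between groups. The part of these cells in the result was not tested.

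Becn1 (ENSMUSG00000035086, chromosome 11, 101285952 to 101302286), the scaffold of the lipid kinase complex, ranged from 52.1 to 63.2 CPM in young and from 54.2 to 71.8 CPM in aged IgG2a libraries, and the groups overlapped. Its log2 fold change in aged IgG2a against young was 0.11 (SE 0.11, 95% confidence interval -0.13 to 0.36), and without replicate 1 it was -0.00015 (-0.20 to 0.20). The exons of Becn1 share 3104 of 7065 bases with Cntd1 on the other strand, and the strand setting of the counting is not given, so reads of the 2 genes may be mixed.

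Atg7 (ENSMUSG00000030314, chromosome 6, 114643097 to 114860614) encodes the enzyme that activates both ATG12 and the ATG8 proteins for attachment. Its level was 25.2, 25.7, 22.8, 21.5 and 26.3 CPM in the young libraries, 27.7, 30.3, 29.2 and 31.7 CPM in aged IgG2a and 27.4, 26.7, 29.6 and 30.8 CPM in aged aPD1ab libraries. All 8 aged libraries lay above all 5 young ones, and the aged groups overlapped each other. It was the 1 member of 10 whose aged IgG2a libraries all lay above the young ones, as did 4.92% of all genes. In aged IgG2a mice the log2 fold change was 0.36 (SE 0.09, edgeR adjusted p = 0.0323), or 0.38 (SE 0.09, adjusted p = 0.00652) without replicate 1. Leaving out any 1 of the other 8 libraries moved the adjusted p to between 0.0520 and 0.0978. The direction turned to -0.076 when libraries were scaled by their totals alone. The total counts hold the mitochondrially encoded transcripts, which took 23.1 to 30.4% of counts in young libraries and 29.3, 38.7, 46.2 and 54.9% in aged IgG2a libraries 1 to 4. With totals alone the median of all genes moved from 0.04 to -0.38, so Atg7 lay above the median gene on either scale. Atg7 also followed the macrophage markers across libraries (r = 0.79), whose part was not tested.

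Atg5 (ENSMUSG00000038160, chromosome 10, 44268358 to 44364291), which joins ATG12 to form the last enzyme of the ATG8 attachment, did not pass the test. It ranged from 20.9 to 24.8 CPM in young and from 19.97 to 25.8 CPM in aged IgG2a libraries, with a log2 fold change of 0.05 (95% interval -0.16 to 0.26), or -0.019 (-0.22 to 0.19) without replicate 1. The promoters of Atg7 and Atg5 are shown because they were the only 2 of the 8 member promoters found in RefSeq that hold CACGTG. This E-box is the core of the sites bound by TFEB, a regulator of lysosome and autophagy genes, and 7.15% of 32851 mouse promoters of the same length hold it. Each sequence runs from 250 bases before to 50 bases after the RefSeq start (GRCm38.p6, plus strand, chr6:114670846-114671145 for Atg7 and chr10:44268089-44268388 for Atg5). Capitals mark the E-box and, in Atg5, the cyclic AMP response element TGACGTCA, which 1.79% of promoters hold.
Atg7: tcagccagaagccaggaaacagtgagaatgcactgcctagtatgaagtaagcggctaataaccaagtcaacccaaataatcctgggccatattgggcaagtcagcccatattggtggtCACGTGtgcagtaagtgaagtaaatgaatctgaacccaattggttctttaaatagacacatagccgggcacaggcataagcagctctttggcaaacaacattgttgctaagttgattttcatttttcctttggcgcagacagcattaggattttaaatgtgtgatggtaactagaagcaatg
Atg5: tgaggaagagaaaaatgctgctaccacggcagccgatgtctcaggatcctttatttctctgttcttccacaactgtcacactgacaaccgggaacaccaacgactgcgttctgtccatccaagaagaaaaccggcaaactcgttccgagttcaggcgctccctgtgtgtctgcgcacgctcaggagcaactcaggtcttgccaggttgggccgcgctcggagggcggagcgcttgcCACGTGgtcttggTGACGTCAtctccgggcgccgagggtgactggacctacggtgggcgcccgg
The E-box of Atg7 lies at -132 to -127 from a start that is inside the annotated gene span, and that of Atg5 at -14 to -9. Atg7 was called in this comparison and Atg5 was not, and the difference between the 2 genes was not tested.

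The ATG8 family showed no common direction in aged IgG2a against young. Gabarapl1 (ENSMUSG00000030161, chromosome 6, 129533160 to 129542346) encodes a GABARAP protein that acts late in closure of the membrane. Its level was 597, 514, 622, 763 and 593 CPM in young libraries, 979, 314, 384 and 420 CPM in aged IgG2a libraries 1 to 4, and 815, 650, 765 and 737 CPM in aged aPD1ab libraries. Replicate 1 was above every young library and the other 3 were below every young library. With all libraries the log2 fold change in aged IgG2a against young was -0.19 (SE 0.31, edgeR adjusted p = 0.692). Without replicate 1, Gabarapl1 fell by 0.67 on the log2 scale (SE 0.15, edgeR adjusted p = 0.00379), the largest change of the 10 members. Its exons share 570 bases with the transcript 1700101I11Rik on the other strand.

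Map1lc3a (ENSMUSG00000027602, chromosome 2, 155276297 to 155278073), an LC3 gene, had 26.8, 26.9, 27.3, 25.6 and 32.4 CPM in young libraries, 31.5, 20.4, 22.1 and 18.9 CPM in aged IgG2a and 32.4, 51.5, 37.2 and 38.3 CPM in aged aPD1ab libraries. Aged IgG2a replicate 1 lay within the young range and the other 3 below it. For Map1lc3a the log2 fold change was -0.19 (SE 0.14, edgeR adjusted p = 0.342) with all libraries and -0.38 (SE 0.10, adjusted p = 0.0108) without replicate 1.

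Gabarapl2 (ENSMUSG00000031950, chromosome 8, 111940703 to 111953612), also known as GATE-16, had 48.0, 40.8, 47.8, 50.9 and 51.6 CPM in young libraries, 53.4, 38.8, 32.4 and 41.5 CPM in aged IgG2a and 51.3, 51.6, 54.1 and 53.7 CPM in aged aPD1ab libraries. Aged IgG2a replicate 4 lay just above the lowest young library, so the groups overlapped with and without replicate 1. For Gabarapl2 the log2 fold change was -0.14 (SE 0.13, edgeR adjusted p = 0.472) with all libraries and -0.29 (SE 0.11, adjusted p = 0.0424) without replicate 1. Without replicate 1, 3 members (Ulk1, Gabarapl1 and Map1lc3a) had all aged IgG2a libraries below all young ones, beside 29.8% of all genes, and 1 member (Atg7) had them above, beside 20.7%.

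Gabarap (ENSMUSG00000018567, chromosome 11, 69991143 to 69994951), the founding member of its branch, went the other way. It stood at 165, 155, 172, 165 and 189 CPM in young libraries, 205, 197, 201 and 182 CPM in aged IgG2a libraries and 224, 285, 240 and 267 CPM in aged aPD1ab libraries. The aged IgG2a libraries overlapped only the highest young library. The log2 fold change was 0.28 (SE 0.10, edgeR adjusted p = 0.0877), or 0.25 (SE 0.09, adjusted p = 0.0453) without replicate 1, and it turned to -0.14 and -0.26 when scaled by library totals alone. Map1lc3b (ENSMUSG00000031812, chromosome 8, 121590361 to 121598760), the gene of the LC3 form most used as a marker of autophagosomes, ranged from 113 to 130 CPM in young and from 105 to 142 CPM in aged IgG2a libraries. Its log2 fold change was 0.05 (95% interval -0.19 to 0.29), or -0.045 (-0.24 to 0.15) without replicate 1.

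The promoters of Gabarapl1 and Gabarapl2 are shown because their transcripts varied most alike among the 10 members (Pearson r = 0.87 on log2 CPM over 13 libraries, and 0.80 after group means were removed). The windows are chr6:129532942-129533241 and chr8:111940453-111940752 (GRCm38.p6, plus strand).
Gabarapl1: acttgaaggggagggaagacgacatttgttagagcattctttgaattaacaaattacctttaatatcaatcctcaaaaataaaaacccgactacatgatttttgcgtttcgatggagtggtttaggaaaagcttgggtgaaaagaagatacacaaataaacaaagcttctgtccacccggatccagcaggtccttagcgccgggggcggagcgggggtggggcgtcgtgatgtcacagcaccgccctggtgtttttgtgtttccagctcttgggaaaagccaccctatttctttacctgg
Gabarapl2: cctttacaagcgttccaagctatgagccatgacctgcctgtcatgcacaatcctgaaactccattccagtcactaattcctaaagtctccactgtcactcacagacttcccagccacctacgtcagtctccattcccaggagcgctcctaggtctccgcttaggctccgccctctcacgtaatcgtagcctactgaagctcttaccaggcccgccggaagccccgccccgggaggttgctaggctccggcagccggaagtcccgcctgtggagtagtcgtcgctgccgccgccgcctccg
Neither window holds the E-box, the cyclic AMP response element, the antioxidant core TGACNNNGC, the forkhead motif GTAAACA, the box known as CCAAT or the TATA motif TATAAA on either strand, so no letter is in capitals. Over all promoters, TGACNNNGC was found in 12.4%, GTAAACA in 3.65%, CCAAT in 37.4% and TATAAA in 13.6%. Of the other promoters found, that of Map1lc3b holds TGACNNNGC at 4 to 12 after the start, and that of Sqstm1 holds TATAAA.

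Sqstm1 (ENSMUSG00000015837, chromosome 11, 50199366 to 50210827) encodes p62, the receptor that carries ubiquitin-tagged cargo and is itself degraded with it. Its level was 343, 309, 308, 282 and 362 CPM in young libraries, 340, 323, 430 and 198 CPM in aged IgG2a libraries and 368, 476, 312 and 484 CPM in aged aPD1ab libraries. The aged IgG2a libraries spread on both sides of the young range. The log2 fold change of 0.07 (SE 0.20, 95% interval -0.38 to 0.52) leaves a wide range. Without replicate 1 it was 0.041 (-0.42 to 0.50), and leaving out aged IgG2a replicate 3 turned it to -0.10. A part of the exons, 580 of 3356 bases, overlaps Mrnip on the other strand.

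The second comparison, aged aPD1ab against aged IgG2a, asked what blocking PD-1 changed in aged mice. Both comparisons use the same aged IgG2a libraries, on opposite sides, so their values are not independent of each other. With all libraries 9 of 10 members had a higher mean with aPD1ab, but 0 members were called by edgeR, beside 0.0% of 15530 genes, of which 4341 had an unadjusted p under 0.05. Among the members, 2 had an unadjusted p under 0.05. Over all genes DESeq2 called 2087 and limma voom with sample weights 6177. Without replicate 1, Gabarapl1, Map1lc3a and Gabarapl2 were called higher, 3 members beside 30.4% of 15770 genes in either direction and 17.1% higher. The median log2 fold change of the members was 0.28 with all libraries and 0.32 without replicate 1, beside -0.01 and 0.01 for all genes.

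**Figure D2:**
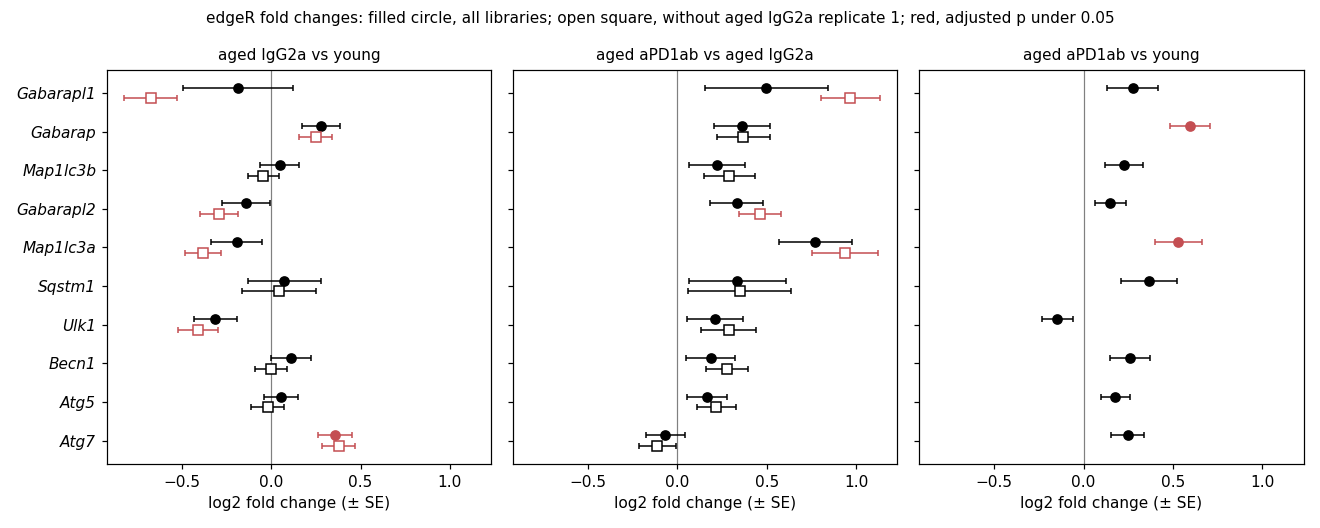
Log2 fold change with its SE (x axis) of the 10 members (rows) in the 3 comparisons, with filled circles for all libraries, open squares without aged IgG2a replicate 1 and red for an edgeR adjusted p under 0.05. Gabarapl1 moved most on leaving out that library, from -0.19 to -0.67 against young and from 0.50 to 0.97 between the aged groups.

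Map1lc3a had the largest difference with all libraries. Its 4 aPD1ab libraries, at 32.4 to 51.5 CPM, lay above all 4 aged IgG2a libraries, at 18.9 to 31.5 CPM. The log2 fold change was 0.77 (SE 0.20, edgeR adjusted p = 0.109), and without replicate 1 it was 0.94 (SE 0.18, adjusted p = 0.0104), a 1.92-fold higher level. In 1 fit of all 3 groups, with every library, it was 0.77 with an edgeR adjusted p of 0.0198, where 17.5% of genes were called. In that fit Gabarap was also called (0.37, adjusted p = 0.0466). Over the other settings tried, the difference of Map1lc3a stayed between 0.61 and 1.30, with adjusted p between 0.000506 and 0.285.

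For Gabarapl1, aged IgG2a replicate 1, at 979 CPM, lay above all 4 aPD1ab libraries, and the other 3 aged IgG2a libraries, at 314 to 420 CPM, lay below them. The log2 fold change was 0.50 (SE 0.34, edgeR adjusted p = 0.357) with all libraries and 0.97 (SE 0.17, adjusted p = 0.00784) without replicate 1. For Gabarapl2 replicate 1 lay within the aPD1ab range and the other 3 aged IgG2a libraries below it, with log2 fold changes of 0.33 (SE 0.15, edgeR adjusted p = 0.181) and, without replicate 1, 0.46 (SE 0.12, adjusted p = 0.0220).

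Gabarap was higher in each of the 4 aPD1ab libraries (224 to 285 CPM) than in each aged IgG2a library (182 to 205 CPM). The test was not passed with all libraries (log2 fold change 0.36, SE 0.16, edgeR adjusted p = 0.170) or without replicate 1 (0.37, SE 0.15, adjusted p = 0.0883). Map1lc3a and Gabarap were the 2 members with all aPD1ab libraries above all aged IgG2a libraries, beside 7.67% of all genes. Without replicate 1 there were 6 such members, beside 26.7%. The remaining differences had intervals on both sides of 0 with all libraries. They were 0.22 for Map1lc3b (-0.13 to 0.57), 0.34 for Sqstm1 (-0.28 to 0.95), 0.21 for Ulk1 (-0.14 to 0.56) and 0.19 for Becn1 (-0.12 to 0.50). For Atg5 the difference was 0.17 (-0.089 to 0.42). Without replicate 1 these differences were 0.29 for Map1lc3b, 0.35 for Sqstm1, 0.29 for Ulk1, 0.28 for Becn1 and 0.22 for Atg5, with edgeR adjusted p between 0.109 and 0.385. Atg7 was the 1 member with a lower mean, at -0.07 (-0.32 to 0.18), or -0.11 without replicate 1, and it turned to 0.20 with totals alone.

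The markers of other cells and the mitochondrial share also varied among these libraries. The proximal tubule sum was higher in the 4 aPD1ab libraries (7145 to 20281 CPM) than in the 4 aged IgG2a libraries (1306 to 6903 CPM), and aPD1ab replicate 2, with 20281 CPM, had the highest Map1lc3a level. Macrophage markers summed to 2408 to 5509 CPM with aPD1ab and, without replicate 1, to 7380 to 9481 CPM with IgG2a. Over 13 libraries Map1lc3a ran with the proximal tubule sum (r = 0.73 on log2 values), and Gabarapl1 and Gabarapl2 ran with it too (both r = 0.67) and against the macrophage sum (r = -0.70 and -0.69). Gabarap ran against the podocyte sum (r = -0.69). Correlations with the other marker sums were not computed. Aged IgG2a replicate 1, with the highest Gabarapl1 level, had a proximal tubule sum of 6903 CPM, below every young library. Its loop of Henle and distal nephron sum, 13325 CPM, was the highest of the 13 libraries. Mitochondrially encoded transcripts took 25.4, 25.2, 38.5 and 20.4% of counts in aPD1ab libraries 1 to 4, and 29.3 to 54.9% in aged IgG2a libraries. The groups overlapped, and no correlation of a member with this share was computed. All 10 markers of both the proximal tubule and the macrophage list had counts in every library. Without replicate 1, Nphs1 was higher with aPD1ab by 2.33 in log2 units (adjusted p = 0.0202 by edgeR). Of the 10 podocyte markers, 4 were then called higher and 1 lower, beside 17.1% and 13.2% of all genes. Their sums overlapped, at 340 to 949 CPM with aPD1ab and 587 to 768 CPM in the other 3 aged IgG2a libraries. In the same fit 9 of 10 proximal tubule markers were called higher and 9 of 10 macrophage markers lower. The part of these cells and of the mitochondrial share in the result was not tested.

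**Figure D3:**
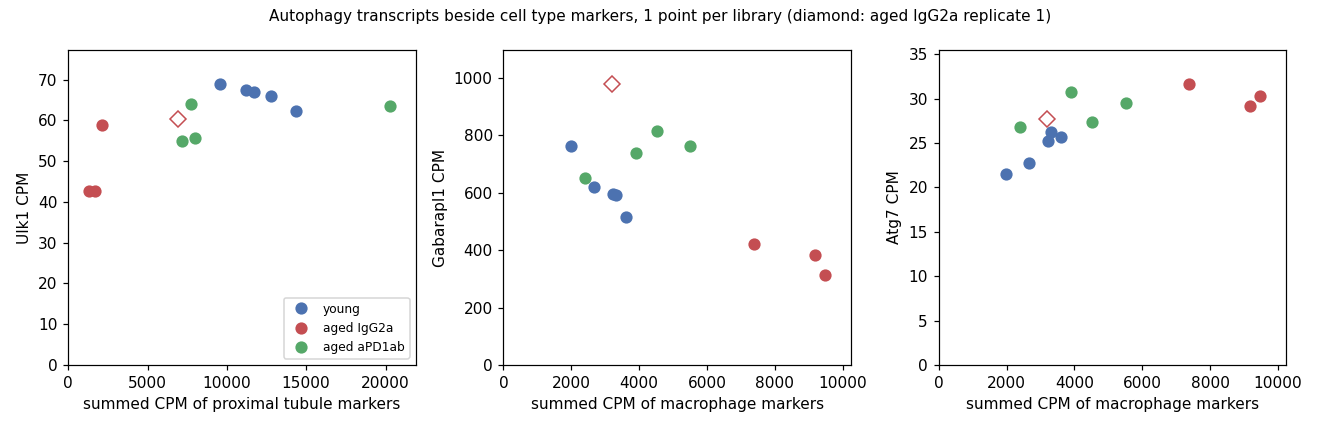
CPM of Ulk1, Gabarapl1 and Atg7 (y axes) against the summed CPM of proximal tubule or macrophage markers (x axes), with 1 point per library and aged IgG2a replicate 1 as an open diamond. The 3 other aged IgG2a libraries have macrophage sums of 7380 to 9481 CPM, above all other libraries, with the 3 lowest Gabarapl1 levels and Atg7 levels of 29.2 to 31.7 CPM.

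The ratio of 2 transcripts within a library does not depend on how libraries are scaled. It was computed after the levels had been seen and is given without a test. Map1lc3a counts per Map1lc3b count were 0.209 to 0.248 in young libraries and 0.178 to 0.180 in aged IgG2a libraries 2 to 4. In aged IgG2a replicate 1 the ratio was 0.222, and in aPD1ab libraries it was 0.236 to 0.352. Without replicate 1 the aged IgG2a ratios thus lay below all others and within a narrow span. The ratio of Gabarapl1 to Gabarap was 3.13 to 4.63 in young libraries, 4.79 in aged IgG2a replicate 1, 1.59 to 2.31 in the other aged IgG2a libraries and 2.28 to 3.64 in aPD1ab libraries. As a share of the 5 ATG8 transcripts per kilobase, Gabarapl1 took 66.6% ± 3.17 in young (SD, n = 5) and 63.3% ± 4.66 in aPD1ab libraries (SD, n = 4). In aged IgG2a it took 59.1% ± 9.97 (SD, n = 4), or 54.5% ± 4.42 (SD, n = 3) without replicate 1. The size of these shares depends on the joined exon lengths.

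**Figure D4:**
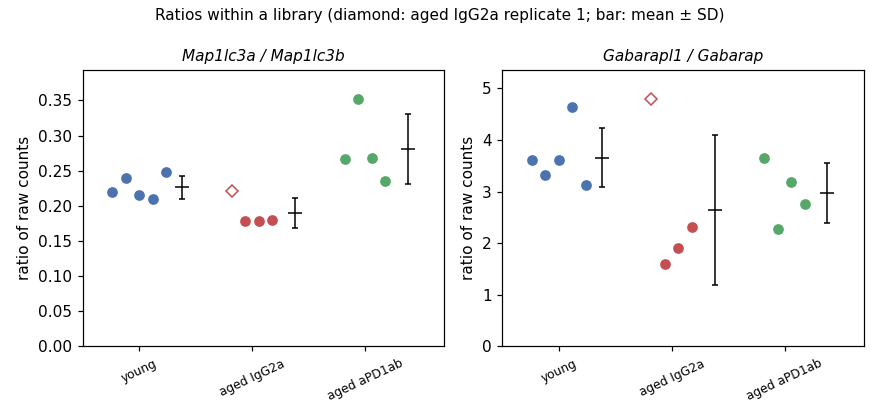
Ratios of raw counts of Map1lc3a to Map1lc3b and of Gabarapl1 to Gabarap (y axes, from 0) by group, 1 point per library, with mean and SD. Aged IgG2a replicates 2 to 4 have Map1lc3a ratios of 0.178 to 0.180 and aPD1ab libraries 0.236 to 0.352.

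The third comparison set aged aPD1ab against young and does not use the aged IgG2a libraries, although it shares the young ones with the first. Gabarap and Map1lc3a were called, both higher in aged aPD1ab mice, 2 members beside 22.4% of 15986 genes in either direction and 12.4% higher. The log2 fold change of Gabarap was 0.60 (SE 0.11, edgeR adjusted p = 0.00654), a 1.51-fold higher level. That of Map1lc3a was 0.53 (SE 0.13, edgeR adjusted p = 0.0193), and with library totals alone it was 0.40 (adjusted p = 0.0768). Map1lc3a, Gabarap, Atg5 and Atg7 had all 4 aPD1ab libraries above all 5 young ones, 4 members beside 12.4% of all genes. Of the other members, Sqstm1 was at 0.37 (SE 0.16, adjusted p = 0.115), Gabarapl1 at 0.27 (SE 0.14, adjusted p = 0.188) and Becn1 at 0.26 (SE 0.11, adjusted p = 0.116). Atg7, at 0.25 (SE 0.09, adjusted p = 0.0810), and Atg5, at 0.18 (SE 0.08, adjusted p = 0.148), did not pass. Ulk1 was the 1 member with a lower mean, at -0.15 (SE 0.09, adjusted p = 0.248).

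Cell markers differed in this comparison as well. Podocyte markers summed to 340 to 949 CPM with aPD1ab and 1030 to 1604 CPM in young libraries, with 4 of 10 called lower, and Gabarap ran against that sum over the 13 libraries (r = -0.69). B and plasma cell markers summed to 606 to 8507 CPM with aPD1ab and 301 to 656 CPM in young libraries, with 4 of 8 called higher. The groups did not overlap for podocyte markers and overlapped for B and plasma cell markers through aPD1ab replicate 2. Of the 10 proximal tubule and 10 macrophage markers 0 passed an edgeR adjusted p under 0.05. Also called lower were 4 of 8 mesangial and smooth muscle and 2 of 8 endothelial markers. Also called higher were 2 of 8 T cell and 1 of 6 loop of Henle and distal nephron markers. Over all genes 9.97% were called lower and 12.4% higher. The log2 difference of Nphs1 was -1.23 (adjusted p = 0.0594 by edgeR). The part of these cells in the values of Gabarap and Map1lc3a was not tested.

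The 5 genes whose level was most like that of Map1lc3a over the 13 libraries, among 9503 genes at a mean of at least 10 CPM, were Sod1, Gstm5, Hint2, Clpp and Gpx4, each with a Pearson r of 0.98 on log2 CPM. Sod1 and Gpx4 encode antioxidant enzymes and Clpp a mitochondrial protease. Sod1 stood at 169 ± 18.8 CPM in young (SD, n = 5), 135 ± 24.3 in aged IgG2a (SD, n = 4) and 253 ± 71.2 CPM in aged aPD1ab libraries (SD, n = 4). Gpx4 stood at 171 ± 16.3, 126 ± 41.2 and 318 ± 95.1 CPM. Both genes were picked for their likeness to Map1lc3a over these libraries, which share depth and cell makeup, so their group levels are a description.

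A wider list of 82 autophagy genes, written by role, held 72 genes beyond the 10 members. In aged IgG2a against young 3 of these 72 were called higher and 5 lower by edgeR, beside the 9.05% and 8.38% of all genes called in these directions. Without replicate 1 the counts were 10 higher and 18 lower, beside 22.1% and 23.5% of all genes. The median log2 fold change of the 72 was 0.01 with all libraries. In aged aPD1ab against aged IgG2a 0 of 71 tested were called with all libraries, beside 0.0% of all genes, and without replicate 1 there were 10 higher and 4 lower, beside 17.1% and 13.2%. In aged aPD1ab against young 9 were higher and 10 lower, beside 12.4% and 9.97% of all genes. By role, members included, aged aPD1ab against aged IgG2a was also counted without replicate 1. Called lower were 1 of 8 genes of the Beclin-1 complex and 2 of 15 genes of fusion with the lysosome. Called higher were 1 of 9 tested genes that supply membrane and 1 of 11 conjugation genes. Of the 5 ULK complex genes 0 were called. Over all genes 17.1% were called higher and 13.2% lower in that fit.

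**Figure D5:**
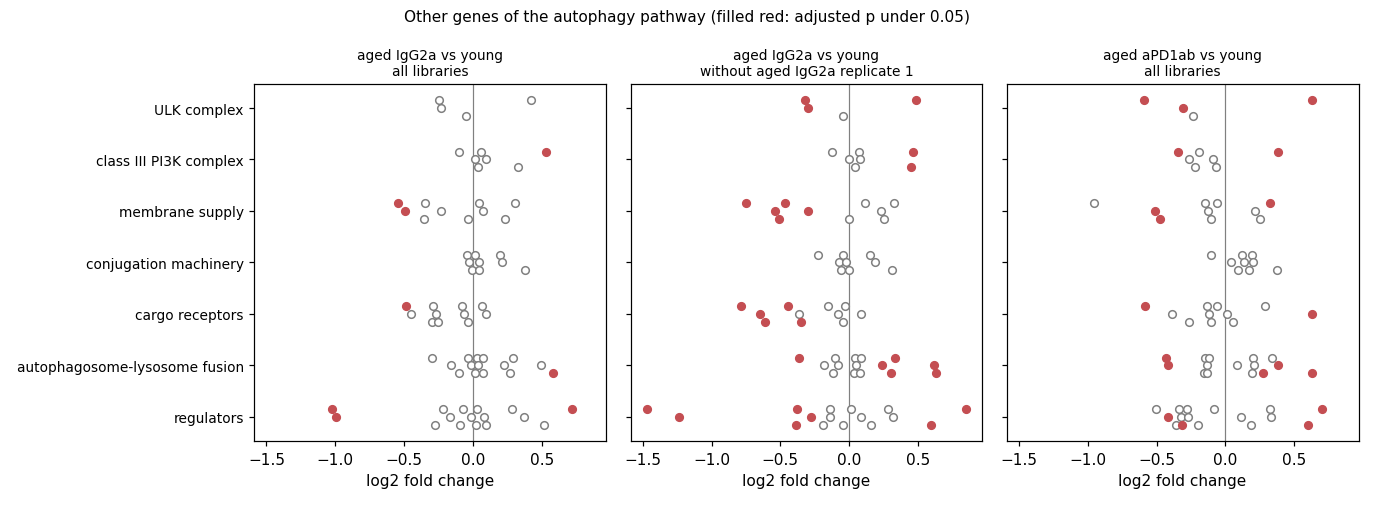
Log2 fold change (x axis) of each wider autophagy gene other than the 10 members, by role (rows), in aged IgG2a against young with all libraries and without replicate 1, and in aged aPD1ab against young, with filled red points at an edgeR adjusted p under 0.05. The regulators hold the most negative called values, -1.03 and -0.99 with all libraries.

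Among the 16 regulators, Mtor and Prkaa2 were called lower and Tfe3 higher in aged IgG2a mice, beside 8.38% and 9.05% of all genes. Mtor, the kinase that restrains ULK1 when nutrients are plentiful, was at 95.1 to 114 CPM in young and 40.6 to 69.2 CPM in aged IgG2a libraries, and the groups did not overlap. Its log2 fold change was -1.03 (edgeR adjusted p = 0.00600), and in aged aPD1ab against young it was -0.50 (adjusted p = 0.0771). Prkaa2, a catalytic subunit of AMPK, which activates ULK1, had 87.9 to 129 CPM in young and 32.4 to 91.2 CPM in aged IgG2a libraries (log2 fold change -0.99, adjusted p = 0.0450). Without replicate 1 the values were -1.24 for Mtor, -1.47 for Prkaa2 and 0.85 for Tfe3. In that fit 2 of the 16 were called higher and 5 lower, beside 22.1% and 23.5% of all genes. Tfe3, a transcription factor of lysosome genes related to TFEB, was higher by 0.72 (adjusted p = 0.0248), with 39.7 to 47.9 CPM in young and 47.7 to 86.1 CPM in aged IgG2a libraries. Without replicate 1, in aged aPD1ab against aged IgG2a, these genes were at 0.76 (adjusted p = 0.0498) for Mtor, 1.13 (adjusted p = 0.00976) for Prkaa2 and -0.51 (adjusted p = 0.0347) for Tfe3. With all libraries none of these 3 differences passed. The 3 genes were named for their p in aged IgG2a against young, which uses the same aged IgG2a libraries. Their opposite signs in the 2 comparisons are thus not independent. Prkag1 and Akt1s1 were the regulators named from aged aPD1ab against aged IgG2a. Without replicate 1 they were higher by 0.44 and 0.76 (edgeR adjusted p = 0.0242 and 0.0170). In that fit 5 of the 16 regulators were called higher and 1 lower, beside 17.1% and 13.2% of all genes.

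Of the 5 genes of the ULK complex, Ulk1 among them, 0 were called in aged IgG2a against young with all libraries, beside 17.4% of all genes. Without replicate 1, 1 was higher and 3 were lower, beside 22.1% and 23.5%. In aged aPD1ab against young 3 of the 5 were called, beside 22.4% of all genes. Atg101 was higher (log2 fold change 0.63, edgeR adjusted p = 0.0115), while Rb1cc1, which encodes the scaffold FIP200, was lower (-0.59, adjusted p = 0.00623), as was Ulk2 (-0.31, adjusted p = 0.0347). In the complex of Beclin-1, Nrbf2 was the 1 of 8 genes called in aged IgG2a against young (0.53, adjusted p = 0.0173). Without replicate 1 it was at 0.46, with 2 of 8 called. Over all genes 17.4% and 45.6% were called in these 2 fits. Among 10 genes that supply membrane, Atg9a, a lipid scramblase on vesicles, fell by 0.54 (adjusted p = 0.0493), and Wipi1, which binds the lipid made by that complex, fell by 0.49 (adjusted p = 0.0203). Without replicate 1 they were at -0.75 and -0.51, and 5 of the 10 genes were called lower, beside 23.5% of all genes. Both were also lower in aged aPD1ab against young, at -0.51 and -0.47 (adjusted p = 0.0307 and 0.0476). Of the 11 conjugation genes Atg7 was the 1 called in aged IgG2a against young. This held with and without replicate 1, beside 17.4% and 45.6% of all genes. Among the non-member genes of this role, Atg4c, Atg16l1 and Atg16l2 were at 0.19, 0.21 and 0.37 with all libraries and did not pass.

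Of the 12 cargo receptors, 1 was called lower in aged IgG2a against young, and 5 without replicate 1, beside 8.38% and 23.5% of all genes. Nbr1, a ubiquitin receptor like p62, fell by 0.49 (edgeR adjusted p = 0.0359), from 148 to 174 CPM in young to 90.0 to 142 CPM in aged IgG2a libraries, with no overlap. Without replicate 1, Nbr1 fell by 0.65 (edgeR adjusted p = 0.000207). In that fit Optn fell by 0.78, Bnip3 by 0.61 and Tax1bp1 by 0.44 (adjusted p = 0.000615, 0.000736 and 0.00153). In aged aPD1ab against aged IgG2a 0 of the 12 were called with all libraries, beside 0.0% of all genes. Without replicate 1, 3 of the 12 were called higher, beside 17.1% of all genes. Bnip3, a mitophagy receptor, was then higher by 0.93 (adjusted p = 0.0124), Phb2 by 0.69 (adjusted p = 0.0193) and Optn by 0.67 (adjusted p = 0.0188). Of the 15 genes of fusion with the lysosome, Vps18, a subunit of the tethering complexes, was the 1 called in aged IgG2a against young (0.58, adjusted p = 0.0395), beside 17.4% of all genes. Without replicate 1 it was at 0.63, and 5 of the 15 were higher and 1 was lower, beside 22.1% and 23.5%. The SNARE gene Stx17 was lower in aged aPD1ab against young (-0.43, adjusted p = 0.00559), at 22.5 to 23.4 CPM against 30.0 to 32.3 CPM. Of all genes at a mean of at least 1 CPM, 11.1% had all aPD1ab libraries below all young ones. Vamp8, another SNARE gene, was higher (0.63, adjusted p = 0.00633). In that comparison 3 of the 15 were called higher and 2 lower, beside 12.4% and 9.97% of all genes. Between the aged groups without replicate 1, Stx17 was at -0.45 (edgeR adjusted p = 0.0180).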

How the data were processed

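The authors deposited 1 table of counts, whole numbers of reads per Ensembl gene without normalization, for the podocyte fraction. The submitters' processing notes name HISAT2, featureCounts, mm10 and GRCm38; versions and the strand setting are not given in the sources used here. Of 15 columns, 13 were tied to a group by the numbers beside the points of a plot in the paper, and 2 carry no such number and were not used. Replicates were numbered in column order, which pairs nothing. The labels describe separate mice, but no batch is named. Totals were 19912969 to 32717100 counts per library; their precision covers counting error only, and no pair of libraries agreed within sampling noise.

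Each pair of groups was fitted on its own in R 4.3.3 with the quasi-likelihood test of edgeR 4.0.16 (robust, TMM factors, low genes dropped by filterByExpr). P-values were adjusted by Benjamini-Hochberg over all genes tested, and a call is an adjusted p under 0.05 with no fold threshold. Intervals use the SE and degrees of freedom of that test. The test was run first on simulated counts. Alternatives used DESeq2 1.42.0, limma 3.58.1 (voom with sample quality weights), other size factors, no filter, 1 fit of all 3 groups, and each library left out in turn. Aged IgG2a replicate 1 was singled out because earlier results of these data had shown it to stand apart. It is also flagged below for its own Gabarapl1 and Becn1 levels. Fits that combine leaving out aged IgG2a replicate 1 with another setting were chosen after seeing the data. Symbols, positions and exon lengths came from GENCODE M21 (GRCm38), and promoters from RefSeq (GRCm38.p6), where 8 of the 10 genes matched. Motifs were searched on both strands.

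The 10 genes, the wider list of 82 and the marker lists were chosen with earlier results of these data known. Named genes are the 10, then for each role in the wider list the 3 others with the smallest p in aged IgG2a against young and the 2 in aged aPD1ab against aged IgG2a, and the 5 genes most like Map1lc3a. The text gives values for only some of these, chosen after their values were seen.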

Additional observations from a re-analysis of the deposited data

Results flagged for a closer look

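In 6 of 57 group values examined (10 genes, 8 marker sums and the mitochondrial share, in 3 groups), 1 library lay far from the others of its group, where chance gives about 1 in 20. Of these, 4 are aged IgG2a replicate 1. It held 979 CPM of Gabarapl1, against 314 to 420 in the other 3, and 71.8 CPM of Becn1, against 54.2 to 56.0. Its proximal tubule markers summed to 6903 CPM, against 1306 to 2101, and its markers of the loop of Henle and distal nephron to 13325 CPM, against 5772 to 6327. Young replicate 5 held 32.4 CPM of Map1lc3a, against 25.6 to 27.3 in the other 4 young libraries. Aged aPD1ab replicate 2 had a proximal tubule sum of 20281 CPM, against 7145 to 8005 in the other 3, and the highest Map1lc3a level of its group at 51.5 CPM. Without that library the log2 fold change of Map1lc3a in aged aPD1ab against aged IgG2a was 0.61 (edgeR adjusted p = 0.251), against 0.77 with it.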

How the results depend on the processing

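Of 180 fold changes of members recomputed in aged IgG2a against young, 130 kept direction and side of the threshold and 22 changed sign; in aged aPD1ab against aged IgG2a it was 144 and 2 of 170, and in aged aPD1ab against young 168 and 0 of 170. The cause of these changes was not tested. For aged IgG2a against young, 1 member was called in the reported fit, 0 with no filter, 2 with DESeq2 and 5 with voom weights (over all genes 2780, then 4253 with DESeq2 and 7447 with voom weights). Without replicate 1 of aged IgG2a, 5 members and 6417 genes were called in 1 fit of all groups and 7 members and 9380 genes with library totals alone. For aged aPD1ab against aged IgG2a, 1 member and 2087 genes were called with DESeq2, 4 and 6177 with voom weights, 2 and 2863 in 1 fit of all groups, and without replicate 1 6 and 6475 in 1 fit of all groups and 8 and 5088 with totals alone. For aged aPD1ab against young, 1 member was called with totals alone, against 2.

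Library totals alone moved the median of all genes to -0.38 in aged IgG2a against young, -0.52 there without replicate 1, 0.24 and 0.38 between the aged groups, and -0.11 in aged aPD1ab against young, and the split over all genes in aged IgG2a against young from 1443 higher and 1337 lower to 331 and 3380. Log2 fold changes that turned in aged IgG2a against young were, with totals alone and then also without replicate 1, -0.35 and -0.55 for Map1lc3b, -0.14 and -0.26 for Gabarap, -0.33 and -0.45 for Sqstm1, -0.29 and -0.51 for Becn1, -0.35 and -0.53 for Atg5, and -0.076 and -0.14 for Atg7. In 1 fit of all groups Map1lc3b was at -0.016 and Atg5 at -0.0096, and without replicate 1 Map1lc3b was at -0.10, Sqstm1 at -0.016, Becn1 at -0.055 and Atg5 at -0.076. With each library left out in turn the range was -0.045 to 0.094 for Map1lc3b, -0.00015 to 0.15 for Becn1 and -0.019 to 0.093 for Atg5, lowest without aged IgG2a replicate 1, and -0.10 to 0.23 for Sqstm1, lowest without aged IgG2a replicate 3. Between the aged groups Atg7 turned to 0.20 with totals alone and 0.26 also without replicate 1.

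With each library left out in turn, members called ranged from 0 to 6 in aged IgG2a against young, 0 to 3 between the aged groups and 2 to 3 in aged aPD1ab against young, and genes called from 553 to 7397, 0 to 4788 and 2369 to 3868. The highest counts of the first 2 comparisons are those without aged IgG2a replicate 1. In the first, all genes called fell to 553, 672 and 1015 without aged IgG2a replicates 3, 2 and 4 and to 809 to 1504 without 1 young library. In the third, Sqstm1 was called without aPD1ab replicate 3 (0.48, edgeR adjusted p = 0.0412). No paired analysis was possible because the columns carry no replicate numbers of the labels and each library is a different mouse.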
